A study of Rattus norvegicus with 8 samples.

Results

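Retinoid metabolism was followed here through 9 genes: Lrat, Stra6, Rdh10, Aldh1a1, Aldh1a2, Crabp1, Crabp2, Rarb and Cyp26b1. Of these, 8 had a probe on the array, out of 15154 genes that could be named, and Rarb matched none and was not analysed here. Every array probe whose RefSeq accession belongs to one of the genes was taken, which gave 9 probes of 30367 (2 for Lrat and 1 for each other gene). All 9 were among the 23585 tested probes, meaning that at least 1 group had every array's signal well above background. Lrat was chosen from the comparisons of P61S/R100E with the other groups on these same arrays, and the other genes were added for their place in its pathway. Its values are therefore a description: SEs and 95% bounds show their spread, and no p-value or call is read as support.

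Retinol, or vitamin A, reaches cells on a plasma carrier and can enter through the membrane receptor encoded by Stra6. Lrat (lecithin retinol acyltransferase) joins retinol to a fatty acid, which traps it in the cell as a stored ester. Rdh10 oxidises retinol to retinaldehyde, and the dehydrogenases Aldh1a1 and Aldh1a2 carry retinaldehyde on to retinoic acid. Crabp1 and Crabp2 bind retinoic acid in the cytoplasm, receptors such as that encoded by Rarb act on transcription when they bind it, and Cyp26b1 breaks it down. Retinoic acid is known for its part in neurite outgrowth and in the patterning of the developing nervous system, and transcription of Lrat, Stra6, Crabp2, Rarb and Cyp26b1 is known to respond to it in several cell types.

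The RNA came from dissociated dorsal root ganglia, the sensory ganglia beside the spinal cord, of newborn Wistar rats 0 to 5 days old, with both sexes pooled. After 2 to 3 days in vitro in a serum-free medium that held 5-fluoro-2′-deoxyuridine, which blocks dividing cells, together with uridine, penicillin, streptomycin and N2 supplement, every culture received 100 ng/ml of one human protein for 5 days. The groups were the P61S/R100E double mutant (n = 3 arrays), the P61S mutant (n = 3) and the wild type form (n = 2). Cultures free of the protein were not analysed here, so each difference compares 2 forms of it. Labels do not say whether replicates were separate cultures or animals, so p-values speak only for the spread among these samples. Neurons and the other cells of a ganglion were measured together. In such bulk samples fewer cells of a type and less RNA per cell cannot be told apart.

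Signals were read as one-colour intensities on 8 arrays of 1 slide, with 75th percentiles between 3267 and 5269, between 78.7% and 88.8% of spots well above background and 0 saturated spots. Values below are log2 of a probe's signal minus log2 of its array's 75th percentile. Differences are differences of group means on that scale, and a level is compared only with the level of the same probe on another array. The arrays' number limits the precision. Wild type replicate 2 stood apart, with correlations of 0.983 to 0.989 to the other arrays, while all other pairs lay between 0.99 and 0.996. Differences from wild type of the 8 genes, and those of lists or other genes that it moves, are therefore also given without it. Slide column 4 held the 2 wild type arrays and no others, so column and protein cannot be told apart wherever wild type is compared. Column 1 held only P61S arrays and column 3 only P61S/R100E arrays, and these 2 groups shared only column 2. Column and protein are therefore largely confounded between them as well.

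The promoters of Lrat and of Crabp2 are shown because these were the genes of the 8 whose P61S/R100E arrays lay apart from both other groups. Each run holds the 250 bases before the gene's start, 5′ to 3′ on the gene's strand, from RefSeq on build GRCr8. The Lrat promoter is at chr2:170571213-170571462 on the minus strand, the Crabp2 promoter at chr2:175714612-175714861 on the plus strand. Capitals mark the letters TATAA, read on the gene's strand.
Lrat: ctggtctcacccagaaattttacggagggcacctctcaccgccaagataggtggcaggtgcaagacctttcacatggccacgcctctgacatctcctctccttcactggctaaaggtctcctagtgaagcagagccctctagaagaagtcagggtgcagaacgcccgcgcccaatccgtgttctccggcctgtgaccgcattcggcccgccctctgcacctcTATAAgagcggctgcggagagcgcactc
Crabp2: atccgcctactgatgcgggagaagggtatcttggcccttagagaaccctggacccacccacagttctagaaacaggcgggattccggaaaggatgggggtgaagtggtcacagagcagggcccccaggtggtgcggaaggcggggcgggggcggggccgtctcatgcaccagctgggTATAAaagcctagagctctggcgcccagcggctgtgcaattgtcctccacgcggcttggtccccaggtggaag
In Lrat the TATAA letters lay 28 to 24 bases before the start, and in Crabp2 73 to 69 bases before it. Of 33469 promoters of the same length, 16.7% hold TATAA on the gene's strand. The 6-letter half-sites of retinoic acid receptors were searched on both strands first as AGGTCA, then as AGTTCA, as GGGTCA and as GGTTCA, and 39.1% of the promoters hold at least 1. Neither printed run held one. Of the 8 genes of the list that the promoter table includes (Rdh10 is not in it), 3 did. The matches were GGGTCA in Aldh1a1, 65 to 60 bases before the start on the opposite strand, AGTTCA in Stra6, 132 to 127 bases before it, and GGGTCA in Rarb, 6 to 1 bases before it. A pair of half-sites as a direct repeat with 1, 2 or 5 bases between them was in none of the 8, against 0.194%, 0.137% and 0.326% of all promoters. Only the first listed start of each of the 8 genes was searched, and other starts that a gene may have were not read. These matches describe the letters in this window only.

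Lrat, the storage enzyme, was 2.23-fold lower with P61S/R100E than with P61S and 2.53-fold lower than with wild type. Its brighter probe, A_44_P550748, read -4.58, -4.48 and -4.41 on the P61S/R100E arrays, against -3.38, -3.24 and -3.38 with P61S and -3.13 and -3.17 with wild type. The 3 double mutant arrays lay below all 5 others, with a gap wider than the spread inside any group. Before scaling, the same probe gave intensities of 156, 236 and 211 with P61S/R100E, 498, 417 and 458 with P61S, and 572 and 363 with wild type. The means of the groups were -4.49 ± 0.09 (P61S/R100E, n = 3), -3.33 ± 0.08 (P61S, n = 3) and -3.15 ± 0.03 (wild type, n = 2), each with its SD. The difference was -1.16 against P61S (SE 0.0847, 95% bounds -1.36 and -0.96) and -1.34 against wild type (SE 0.0947, 95% bounds -1.56 and -1.11). Without wild type replicate 2 the difference from wild type was -1.36.

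Between P61S and wild type Lrat differed by -0.18 (SE 0.0947, 95% bounds -0.40 and 0.04, and -0.20 without wild type replicate 2). All 3 P61S arrays lay below both wild type arrays, while the bounds include 0. The order of levels was thus P61S/R100E lowest, then P61S, then wild type, and the 95% bounds of the difference between the last neighbours in it include 0. Within slide row 1 the difference between P61S/R100E and P61S was -1.27, within row 2 it was -1.06, and in column 2, the only column with an array of each, it was -1.24. Against wild type it was -1.45 within row 1 and -1.27 within row 2. The decrease stood first of 23585 probes by p-value in both comparisons of the double mutant. Lrat was chosen from these comparisons, so the rank is no support. By size, 95 probes had a larger decrease against P61S and 98 against wild type.

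A second Lrat probe, A_44_P491942, was read close to background. It gave -9.62, -7.17 and -8.97 with P61S/R100E, against -7.41, -6.26 and -7.86 with P61S and -7.66 and -6.43 with wild type. It was well above background on 0 of 3 arrays with P61S/R100E, on 2 of 3 with P61S and on 2 of 2 with wild type. It entered the tested probes only through the wild type group, where it was high, so it is no independent reading of the decrease. On P61S/R100E replicate 2 its 2 spots read 5.85 and 229, and that array lay as high as the P61S mean. Measured means were -8.59 with P61S/R100E, -7.17 with P61S and -7.04 with wild type, and the groups overlapped. With normexp background correction and quantile normalization its difference was -0.10 against P61S and -0.17 against wild type, against -1.41 and -1.55 without them, so this probe gives no usable size.

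**Figure D1:**
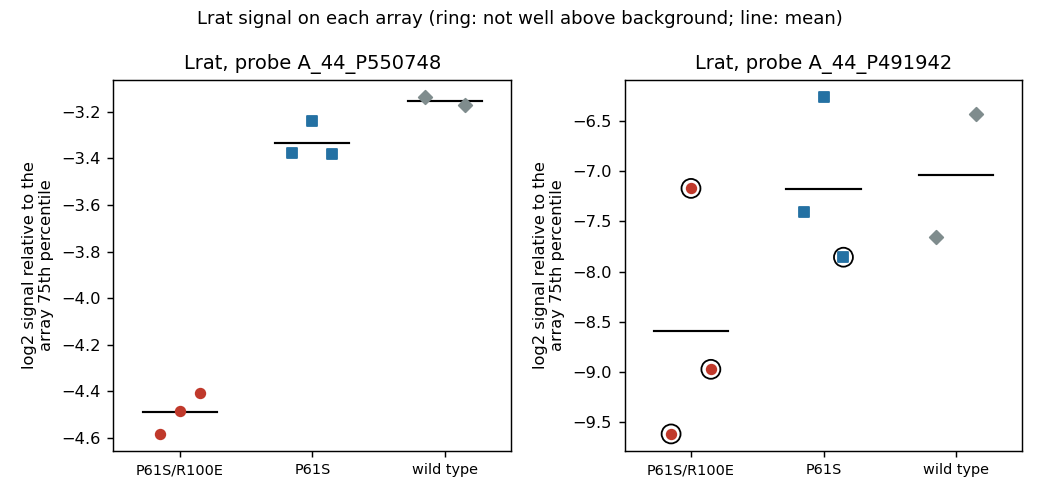
Log2 signal of both Lrat probes relative to the array's 75th percentile, by group, with 1 point per array, a line at each group mean and a ring where the probe was not well above background. On A_44_P550748 the 3 P61S/R100E arrays (-4.58 to -4.41) lie below the 5 others (-3.38 to -3.13), while A_44_P491942 overlaps between groups.

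Across all probes limma called 0 of 23585 (0%) at an adjusted p under 0.05 in each of the 3 comparisons, and the 8 genes were no exception. Without adjustment, p was under 0.05 for 946 probes (4.01%) between P61S/R100E and P61S, 1188 (5.04%) between P61S/R100E and wild type and 489 (2.07%) between P61S and wild type. Of the 8 genes, 1 was higher (Crabp2) and 1 lower (Lrat) at that level against P61S, where 1.94% of all probes were higher and 2.07% lower. Against wild type 0 were higher and 1 (Lrat) was lower, where 1.6% of probes were higher and 3.44% lower. Nothing is read from the calls of Lrat, which was chosen on these contrasts. Between P61S and wild type 0 of the 8 were higher and 0 lower, where 0.691% of probes were higher and 1.38% lower. The median difference of the 8 was 0.10 against P61S, 0.10 for P61S/R100E against wild type and 0.02 for P61S against wild type, where the medians of all tested probes were -0.02, -0.06 and -0.04. Without wild type replicate 2 the medians against wild type were 0.06 for P61S/R100E and -0.05 for P61S, so the sign of the last turned with that array. The first 2 sets of values share the P61S/R100E arrays.

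Stra6, the retinol receptor, was read at -5.05, -4.91 and -4.88 with P61S/R100E, -4.93, -5.05 and -5.13 with P61S, and -4.97 and -4.89 with wild type. The groups overlapped. Its difference was 0.09 against P61S (95% bounds -0.12 and 0.31), -0.01 against wild type and -0.11 between P61S and wild type, and the last 2 were 0.03 and -0.06 without wild type replicate 2. Rdh10, the retinol dehydrogenase, varied least of the 8 genes, with all 8 arrays inside 0.164. It read -1.78, -1.73 and -1.74 with P61S/R100E, against -1.69, -1.85 and -1.69 with P61S and -1.72 and -1.76 with wild type. The 95% bounds of its difference were -0.19 and 0.18 against P61S and -0.22 and 0.20 against wild type (difference -0.01, and -0.03 without wild type replicate 2), so a change of the size measured for Lrat lay outside them.

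Aldh1a2, the retinaldehyde dehydrogenase named above for the last step to retinoic acid, read -3.17, -2.92 and -2.42 with P61S/R100E, -3.00, -3.02 and -3.15 with P61S, and -2.93 and -3.27 with wild type. One double mutant array was the highest of the 8 and another was the second lowest, so the groups overlapped. Its difference was 0.22 against P61S (SE 0.199), 0.26 against wild type (SE 0.222, and 0.10 without wild type replicate 2) and 0.04 between P61S and wild type (-0.12 without wild type replicate 2). Replicate 3 of P61S/R100E carried most of it: without that array the difference was 0.01 against P61S and 0.06 against wild type, and without replicate 1 it was 0.39 against P61S. Within row 1 the difference from P61S was -0.16, and within row 2 it was 0.48. Aldh1a1, which catalyses the same step, gave -6.82, -5.99 and -6.66 with P61S/R100E, -6.83, -6.01 and -6.95 with P61S, and -6.78 and -7.09 with wild type. Replicate 2 was the high array in both mutant groups, and both of these arrays lay in slide column 2. In the double mutant the 2 spots of that array read 39.6 and 174. Differences were 0.11 against P61S (SE 0.310), 0.45 against wild type (SE 0.347, and 0.29 without wild type replicate 2) and 0.34 between P61S and wild type (SE 0.347, and 0.18 without wild type replicate 2). With errors of that size only large changes of Aldh1a1 were detectable.

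Crabp2, the carrier that hands retinoic acid to its nuclear receptors, was 1.19-fold higher with P61S/R100E than with P61S. It read 4.23, 4.09 and 4.41 with P61S/R100E, against 4.02, 3.96 and 3.995 with P61S and 4.05 and 4.001 with wild type. The 3 double mutant arrays lay above all 5 others, by a gap smaller than the spread among them. Its difference was 0.25 against P61S (SE 0.0994, 95% bounds 0.02 and 0.49, limma adjusted p = 0.999) and 0.22 against wild type (SE 0.111, adjusted p = 0.746, and 0.19 without wild type replicate 2). Neither passed over all probes. Within rows 1 and 2 the difference from P61S was 0.25 and 0.26, and within column 2 it was 0.13. Between P61S and wild type it was -0.04 (-0.06 without wild type replicate 2).

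Crabp1, the other cytoplasmic carrier, did not follow Crabp2. It read -3.82, -3.46 and -3.94 with P61S/R100E, -3.52, -3.44 and -3.52 with P61S, and -3.47 and -3.93 with wild type. Its difference was -0.25 against P61S (SE 0.163), -0.04 against wild type (SE 0.183, and -0.27 without wild type replicate 2) and 0.21 between P61S and wild type (-0.02 without wild type replicate 2). The groups overlapped between P61S/R100E and each other group. The difference between the carriers' changes was not tested.

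Cyp26b1, the enzyme of retinoic acid breakdown, read -5.07, -4.95 and -4.92 with P61S/R100E, against -5.44, -4.88 and -5.52 with P61S and -5.25 and -5.53 with wild type. The double mutant arrays lay above both wild type arrays, while 1 P61S array was the highest of the 8. Its difference was 0.30 against P61S (SE 0.180, limma adjusted p = 0.999), 0.41 against wild type (SE 0.201, adjusted p = 0.746, and 0.27 without wild type replicate 2) and 0.11 between P61S and wild type (-0.03 without wild type replicate 2). With the slide column as a covariate the difference from P61S was -0.07, so its direction was not settled. That value equals the difference within column 2, which is 1 array against 1. Counted over the list, groups did not overlap for 1 gene higher and 1 lower against P61S, where 5.75% of all probes were higher and 8.23% lower without overlap (14% in all). Against wild type this held for 2 genes higher (Crabp2 and Cyp26b1) and 1 lower (Lrat), with 5.86% and 9.2% of all probes (15.1% in all). Between P61S and wild type it held for 1 gene (Lrat, lower), with 7.39% of all probes higher and 9.23% lower (16.6% in all).

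**Figure D2:**
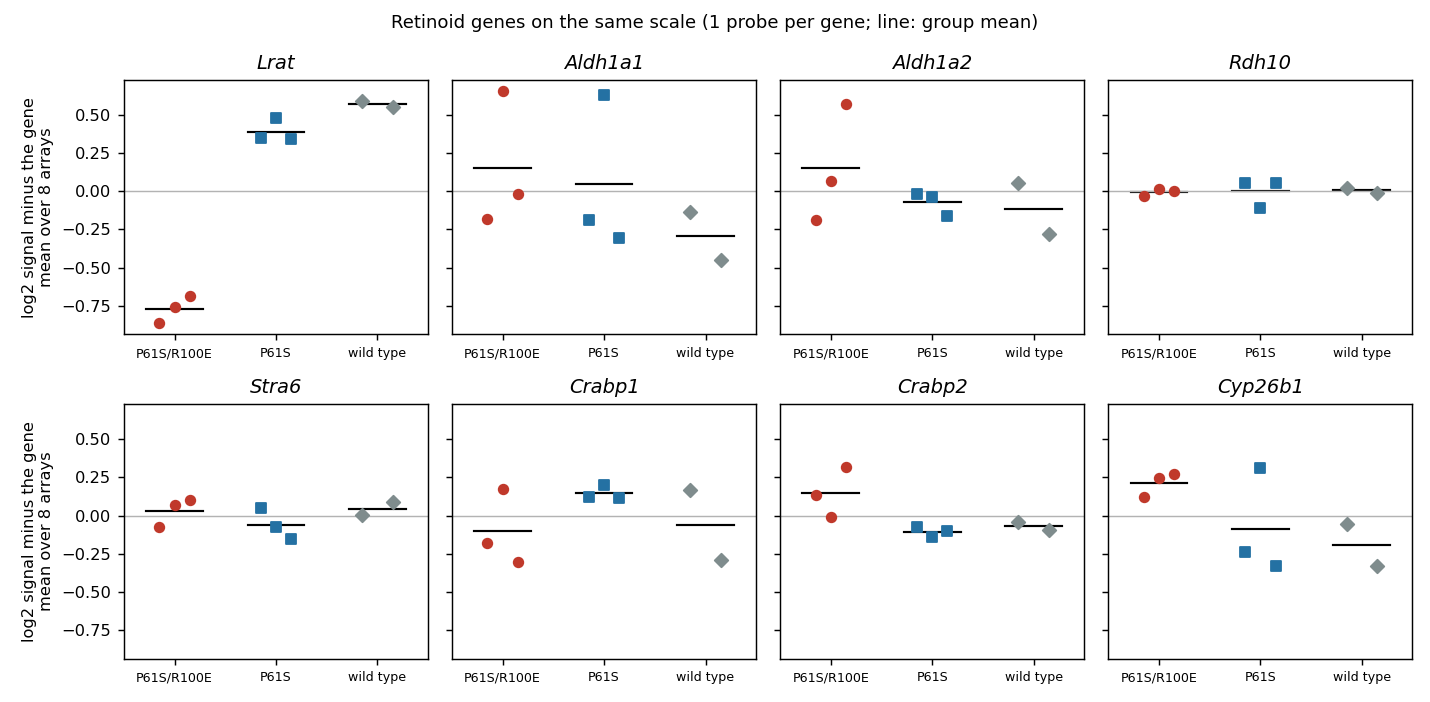
Log2 signal of the 8 measured genes minus each gene's mean over the 8 arrays, by group, with 1 point per array and a line at the group mean, all on the same vertical scale. Lrat separates the 3 P61S/R100E arrays from the rest by about the difference of -1.16, while Rdh10 stays inside 0.164 over all arrays.

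**Figure D3:**
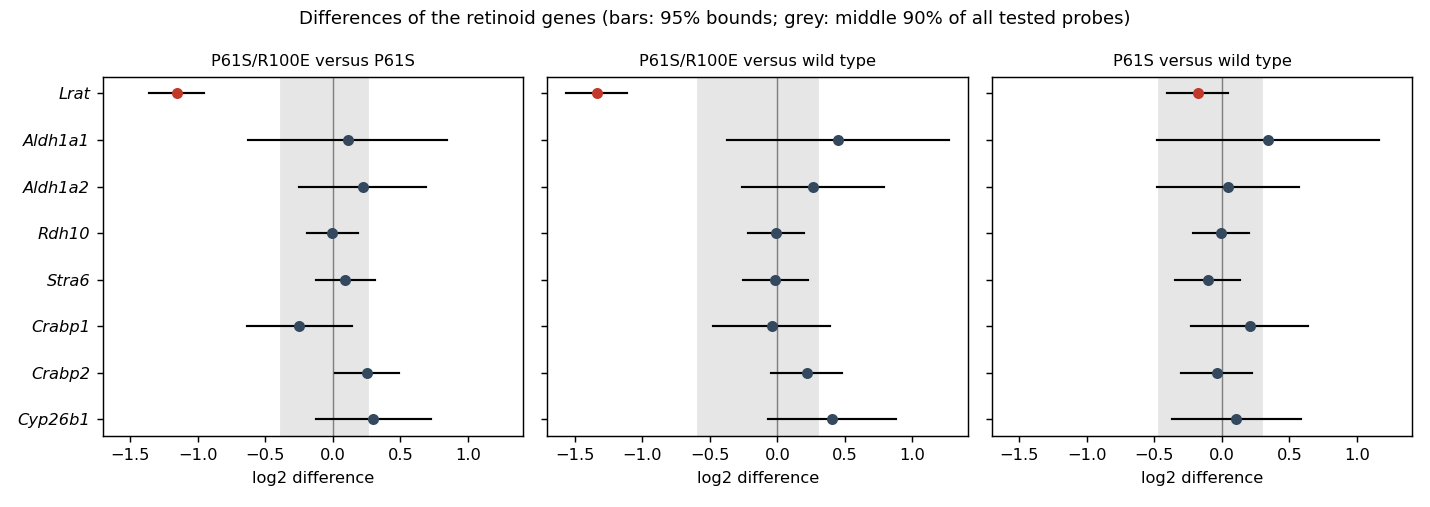
Log2 difference of each gene in the 3 comparisons, with 95% bounds as bars and the middle 90% of all tested probes in grey. Lrat lies at -1.16 and -1.34 in the comparisons of P61S/R100E and at -0.18 between P61S and wild type, and the bounds of the other 7 genes include 0 apart from Crabp2 against P61S (0.02 and 0.49).

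The wider pathway was read through 4 lists, in which the brightest probe stood for a gene. Of 18 genes of uptake, transport and storage 12 were tested, with a median difference of -0.05 against P61S and 0.03 against wild type (0.06 without wild type replicate 2). At an unadjusted p under 0.05, 2 were higher and 1 lower against P61S, where 1.94% of all probes were higher and 2.07% lower. Against wild type 1 was higher and 1 lower, where the shares of all probes were 1.6% and 3.44%. Lipe, a lipase that can hydrolyse stored retinyl esters, read -4.93, -4.81 and -4.85 with P61S/R100E, against -4.62, -4.54 and -4.56 with P61S and -4.68 and -4.28 with wild type. Its difference was -0.29 against P61S (SE 0.114) and -0.39 against wild type (SE 0.127, and -0.19 without wild type replicate 2). A second Lipe probe gave -0.42 and -0.30 in the same comparisons. Bco1, which cleaves beta-carotene to retinaldehyde, read -6.04, -5.79 and -6.06 with P61S/R100E, -6.50, -6.05 and -6.79 with P61S, and -6.32 and -6.61 with wild type. Its groups overlapped against P61S, where the difference was 0.49 (SE 0.200). Against wild type they did not overlap, with a difference of 0.50 (SE 0.223, and 0.35 without wild type replicate 2). Neither gene passed over all probes.

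Enzymes that convert retinol and retinaldehyde came next. Of 19 such genes 11 were tested, and on the brightest probe 0 reached an unadjusted p under 0.05 in any of the 3 comparisons, with 0 called by limma after adjustment. A dimmer probe of Rdh16, named after its values were seen, reached it between P61S and wild type (-0.69, SE 0.259, groups apart), while the brightest Rdh16 probe gave -0.16. The median difference was 0.01 against P61S, -0.09 against wild type (0.08 without wild type replicate 2) and -0.12 between P61S and wild type (0.04 without wild type replicate 2). The medians against wild type thus turned with that 1 array.

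Receptors, carriers and breakdown enzymes outside the 9 genes had 9 of 12 tested, with medians of 0.08 against P61S and 0.06 against wild type (0.05 without wild type replicate 2). Cyp2s1, a cytochrome P450 that can metabolise retinoic acid, was the 1 gene of the 9 that reached an unadjusted p under 0.05 in both comparisons of P61S/R100E, where 1.94% of all probes were higher against P61S and 1.6% against wild type. It read -3.17, -2.93 and -3.07 with P61S/R100E, against -3.92, -3.48 and -3.95 with P61S and -3.89 and -3.85 with wild type. Its difference was 0.72 against P61S (SE 0.144, limma adjusted p = 0.524) and 0.82 against wild type (SE 0.161, adjusted p = 0.616, and 0.84 without wild type replicate 2), and it did not pass over all probes. Its other probes did not share this, at 0.33 and -0.01 against P61S and -0.02 and -0.00 against wild type. Rara, the receptor most widely expressed in the family of Rarb, is added after its values were seen. It read -0.07, -0.52 and -0.56 with P61S/R100E, -0.69, -0.62 and -0.64 with P61S, and -0.38 and -0.36 with wild type, a difference of 0.27 against P61S (SE 0.139) and -0.02 against wild type (SE 0.155). Between P61S and wild type Rara differed by -0.29 (SE 0.155, and -0.28 without wild type replicate 2), and the groups did not overlap.

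The list of genes known to be induced by retinoic acid shares Lrat, Stra6, Crabp2 and Cyp26b1 with the 9 genes. Of 20 genes 13 were tested, with medians of 0.05 against P61S, 0.04 against wild type (0.02 without wild type replicate 2) and -0.04 between P61S and wild type. Against P61S 10 lay above 0 and 3 below, against wild type 8 and 5, and 0 passed limma's test over all probes. At an unadjusted p under 0.05, 2 were higher, Crabp2 among them, and 1 (Lrat, chosen on these values) lower against P61S, where 1.94% of all probes were higher and 2.07% lower. Against wild type 1 was higher and 1 (Lrat) lower, where the shares were 1.6% and 3.44%. Lrat was the lowest of the 13 in both comparisons. Apart from it, differences from P61S in the list ran between -0.13 for Rarres2 and 0.44 for Nrip1. A second, dimmer Nrip1 probe did not share this, at 0.07 against P61S.

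**Figure D4:**
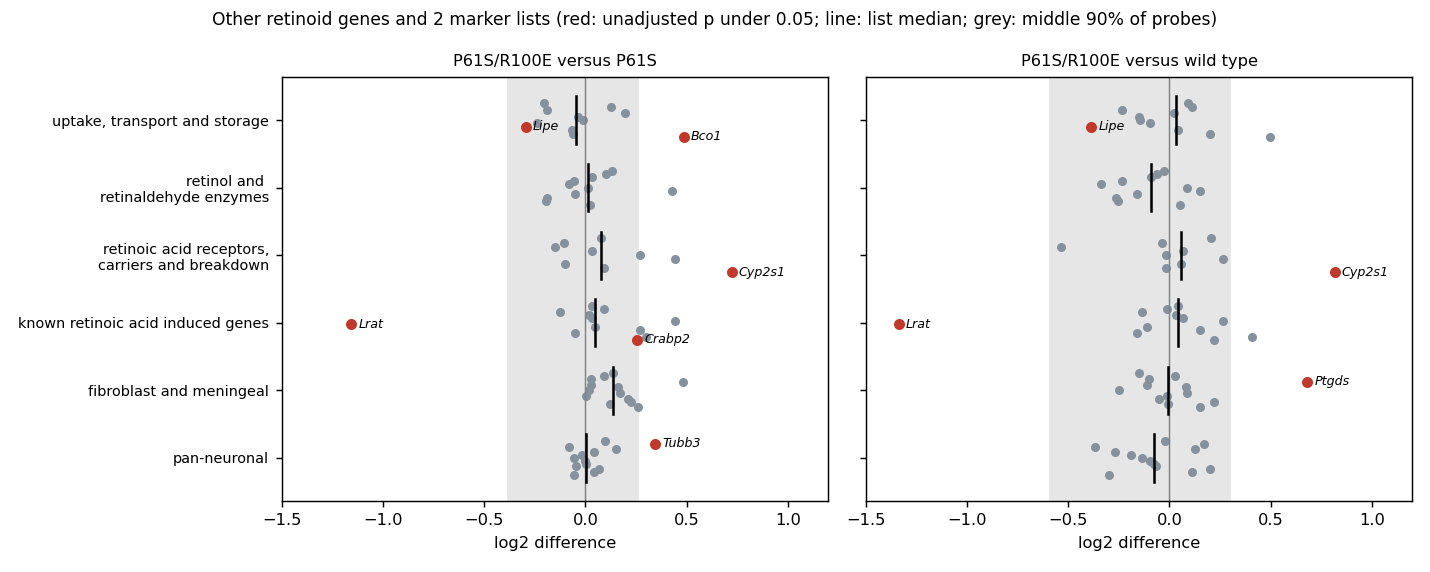
Log2 differences of the genes reported here from the 4 retinoid lists and from the fibroblast and pan-neuronal marker lists, with 1 point per gene, a line at the median of all tested genes of the list, red and a name at an unadjusted p under 0.05, and the middle 90% of all probes in grey. Lrat, at -1.16 and -1.34, lies outside the other points of the retinoid lists, whose medians run from -0.09 to 0.08.

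Markers of the cell types that a ganglion culture holds were read beside these values. Pan-neuronal markers, 13 of 14 tested, had a median difference of 0.00 against P61S and -0.08 against wild type, which was 0.07 with 9 of 13 above 0 without wild type replicate 2. Their summed signal, relative to each array's 75th percentile, ran from 205 to 221 with P61S/R100E, 191 to 220 with P61S and 200.1 to 227 with wild type, and all 13 were above background on every array. Tubb3, a neuronal tubulin named after its values were seen, differed most of the 13 from P61S, by 0.35 (SE 0.0757, limma adjusted p = 0.654). It read 4.30, 4.24 and 4.24 with P61S/R100E, 3.92, 3.97 and 3.85 with P61S, and 4.04 and 4.13 with wild type.

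Fibroblast and meningeal markers, 13 of 14 tested, were all 13 above 0 in the difference from P61S, with a median of 0.13. Against P61S 0 of 13 reached an unadjusted p under 0.05, and 4 were higher with groups that did not overlap, where 5.75% of all probes were. Their summed relative signal ran from 156 to 189 with P61S/R100E, 148 to 163 with P61S and 163.9 to 164.2 with wild type, and all 13 were above background on every array. Against wild type 6 were above 0 and 7 below, with a median of -0.01 (0.08 without wild type replicate 2). There Ptgds, a prostaglandin D synthase of the meninges, was 0.68 higher with P61S/R100E (SE 0.256, limma adjusted p = 0.746, and 0.64 without wild type replicate 2). Between P61S and wild type 1 of the 13 was above 0 and 12 were below, with a median of -0.11. Without wild type replicate 2 that median was -0.08, with 4 above 0 and 9 below. There 3 markers were lower with groups that did not overlap, where 9.23% of all probes were. The difference of these markers from P61S thus also holds low values of the P61S arrays. Tbx18, a transcription factor of mural and meningeal cells, differed by -0.29 between P61S and wild type (SE 0.106, limma adjusted p = 0.999, and -0.14 without wild type replicate 2). Lrat differed in the opposite direction, and Crabp2 in the same direction as these markers against P61S, and the markers' part in those differences was not tested. Median differences from P61S were 0.01 for 8 satellite glia markers, -0.01 for 12 Schwann cell markers, 0.00 for 10 macrophage markers and -0.12 for 9 endothelial and mural markers. Against wild type those of P61S/R100E were 0.00, -0.07, 0.04 and -0.05 in that order. Without wild type replicate 2 they were 0.02, 0.02, 0.18 (9 of 10 above 0) and 0.07. Among macrophage markers Ptprc was 0.30 higher with P61S/R100E than with wild type (0.14 without wild type replicate 2). C1qc was 0.28 higher with P61S than with wild type (0.32 without wild type replicate 2). Neither passed over all probes. Ptgds, Tbx18, Ptprc and C1qc were named after their values were seen.

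Genes whose 8 values were most like those of Lrat were sought among 12147 other named genes, by the root mean square difference of values centred on each gene's mean over the arrays. The closest were Nts, the gene of the peptide neurotensin (0.244), Camk4, a calcium-dependent protein kinase (0.257), Mrgprb5, a Mas-related receptor (0.266), Olr1, a scavenger receptor for oxidised lipoprotein (0.270), F2rl1, a protease-activated receptor (0.272), and Calb2, the calretinin gene (0.275). The median gene stood at 0.613, and a gene with no variation at all would stand at 0.602. Nts differed by -1.05 against P61S and -0.84 against wild type, Olr1 by -0.68 and -0.84 in the same comparisons. Among the 8 genes, Crabp1 was the closest to Lrat (0.564) and Aldh1a1 the most distant (0.803). Distances for genes of the wider retinoid lists are not given here, and some of those genes may lie closer than Crabp1. Nearest to the mirror of Lrat, by the root mean square sum, were Anxa3, a phospholipid-binding annexin (0.176), Pde6b, a phosphodiesterase subunit (0.183), and Elf5, an ETS transcription factor (0.218). With 8 arrays in 3 groups this likeness is mostly a likeness of group means, and it was sought on the values that chose Lrat.

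**Figure D5:**
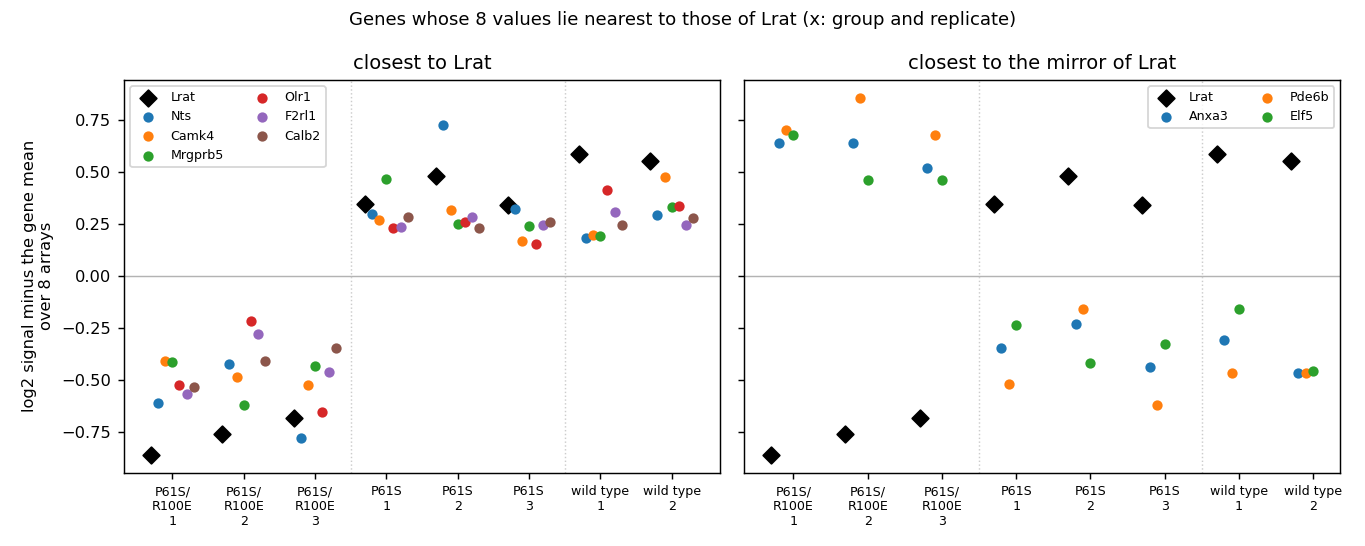
Log2 signal minus the gene's mean over 8 arrays for Lrat (diamonds) and for the 6 genes closest to it (left) and the 3 closest to its mirror (right), on each array. Every one of the 6 lies below 0 on the 3 P61S/R100E arrays and above 0 on the 5 others, and the 3 mirror genes lie the other way round.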

How the data were processed

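Per the file headers, the scanner export of each one-colour Agilent array held background-subtracted spot intensities from Feature Extraction 10.7.3.1 (protocol GE1_107_Sep09, array design 028279, annotated on build rn4). Only RNA with an integrity number of 8.0 or more was kept, per the labels' protocols. The authors' deposited log2 table (22018 probes, column medians 9.82 to 10.33) correlated at 0.999 or more with the scanner signals and was not scaled between arrays.

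Here log2 intensities were scaled to each array's 75th percentile, 58717 non-control spots were averaged per probe without outlier spots, and accessions were matched to symbols by a RefSeq table (GRCr8). 1 limma fit (limma 3.58.1, R 4.3.3) of 3 group means gave 5 residual and 1.93 prior degrees of freedom. P-values were adjusted by the Benjamini-Hochberg method over 23585 probes at 0.05, after the script was tested on simulated data. Figures used Python 3.11.15 and matplotlib 3.10.9.

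The genes and lists were chosen with earlier results of these data known. Named besides them were up to 3 genes per retinoid list and direction with the smallest p under 0.05, and the 6 genes closest to Lrat and 3 to its mirror. Single markers of cell types fell outside this rule and were named after their values were seen. Other settings tried were quantile normalization with and without a normexp background correction (offset 50), median centring, the deposited values, 2 other filters, replicate, row and column terms, 2-group fits, a variance trend, other spot rules, an adjusted p under 0.10 and each array left out. Planned for the mean signal, normexp used the median signal, the column at hand. Deviations of same-numbered replicates did not correlate above 0.1 in every pair, so the numbers were not taken to pair samples. The protein's name and 1 gene that the naming rule takes are not reported here.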

Additional observations from a re-analysis of the deposited data

How the results depend on the processing

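The count of probes at an adjusted p under 0.05, 0 in each comparison, was 1 for P61S/R100E against P61S with the deposited values, 1 with a filter on all arrays, 1 at an adjusted p under 0.10 and 6 with a variance trend. For P61S/R100E against wild type it was 1 with normexp, with quantile normalization, with the deposited values, with the filter on all arrays, with the variance trend and at an adjusted p under 0.10. For P61S against wild type it was 1 with normexp and 1 with quantile normalization. Leaving out 1 array at a time gave 0 to 3 calls against P61S (3 without P61S replicate 2) and 0 to 1244 for P61S/R100E against wild type. There it was 1244 without wild type replicate 1, 2 without P61S replicate 2 and 1 without wild type replicate 2. For P61S against wild type it gave 0 to 250, with 250 without wild type replicate 1, 1 without P61S replicate 2 and 1 without wild type replicate 2. Leaving out one wild type array leaves 1, which is assumed to vary like the other groups. The cause of these changes was not tested.

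With the replicate block the count was 0, 0 and 0 in the 3 comparisons. Deviations of same-numbered arrays had correlations of 0.051, -0.021 and 0.008 between P61S/R100E and P61S, -0.158 and -0.198 between P61S/R100E and wild type, and 0.104 and 0.167 between P61S and wild type. They were not above 0.1 for every pair, so the block was not used as a pairing. Over 21 settings the difference of Lrat (A_44_P550748) ran from -1.24 to -0.92 against P61S and from -1.38 to -0.99 against wild type, and from -0.23 to -0.01 between P61S and wild type. Over all 9 probes the sign was kept in 177 of 187 values against P61S. Against wild type it was kept in 172 of 187 for P61S/R100E and in 171 of 187 for P61S. These counts include settings that cannot change a difference, such as other probe filters, a variance trend, or leaving out an array of the group not compared. The sign was fixed there, so the counts overstate how far directions held under other processing. The slide column as a covariate moved the median of all probes to -0.11 against P61S and to 0.11 between P61S and wild type, and in the same fit the differences of Lrat were -1.24 and -0.01. The value of -1.24 is the difference within column 2, 1 array against 1, and is no separate check. The median of a probe's spots in place of the mean was chosen after seeing the data and gave 0 calls in each comparison. Signal over background limits the second Lrat probe, which was not above it on 4 of 8 arrays.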
